A study of Mus musculus with 10 samples.

Results

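The dual-specificity MAP kinase phosphatases are a family of enzymes that switch off MAP kinases, and 9 of their genes were taken by symbol from a table of 17274 genes in mouse liver: Dusp1, Dusp3, Dusp4, Dusp5, Dusp6, Dusp7, Dusp8, Dusp10 and Dusp16. All 9 averaged 0.5 FPKM or more (fragments scaled by gene length and by library size) over the 10 livers and so were among the 12053 genes tested. The genes were picked by name, and the choice was made with earlier results of these data known. The livers came from WT mice, and all of the mice, controls included, were on CDAHFD, a high-fat diet that is choline-deficient and L-amino acid-defined and that induces NASH (nonalcoholic steatohepatitis, in which a fat-laden liver becomes inflamed and scarred). Both groups were given AAV (adeno-associated virus, used to carry genes into cells) by vein: a control AAV in 5 samples, and AAV-miR-181d-5p, which encodes a microRNA of the miR-181 family, in the other 5. The age and sex of the mice, the time on the diet, the vector's serotype and promoter and how much of the microRNA each liver held are not given in the sources used here.

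Depth was even, at 18985912 to 20657019 reads per library. Hepatocyte markers, albumin included, matched the liver label: all 12 on the list were measured, and their summed level was 35270 to 42060 FPKM in control livers and 36520 to 41850 FPKM in miR-181d-5p livers. Albumin was the largest part of these sums, at means of 22370 and 22980 FPKM. No label says that each numbered sample is a separate animal, and p-values therefore speak of the spread among these samples. Control liver 5 stood apart in immediate early genes, which cells transcribe within minutes of a stimulus. Their summed level was 1866 FPKM there, against 447 to 692 FPKM in the other control livers and 484.6 to 578.4 FPKM in the miR-181d-5p livers. Results that rest on this liver are therefore given with and without it.

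MAP kinases (ERK, JNK and p38) are active while a threonine and a tyrosine in their activation loop carry phosphate, and dual-specificity phosphatases remove both. Many of the family are themselves transcribed in response to MAP kinase activity, which makes them a negative feedback on growth factor and stress signals. By location and substrate they fall into inducible nuclear enzymes (Dusp1, Dusp2, Dusp4, Dusp5), cytoplasmic enzymes for ERK (Dusp6, Dusp7, Dusp9) and enzymes that prefer JNK and p38 (Dusp8, Dusp10, Dusp16). Dusp3 encodes VHR, a small member that lacks the docking domain of the others. In liver, Dusp1 has been studied for glucose and lipid metabolism and Dusp6 for growth factor responses, and in T cells Dusp5 and Dusp6 have been described as targets of miR-181a.

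A microRNA pairs with target transcripts mainly through its seed, bases 2 to 8 counted from the 5′ end. The mature microRNA of the vector and its relatives are shown because they decide which sites were searched. They come from RefSeq (GRCm38.p6), are written 5′ to 3′, and carry the seed in capitals. All 4 share 1 seed.
miR-181d-5p (chromosome 8, 84178759 to 84178781, minus strand): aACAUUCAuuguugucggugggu
miR-181a-5p: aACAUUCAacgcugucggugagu
miR-181b-5p: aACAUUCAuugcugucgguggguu
miR-181c-5p: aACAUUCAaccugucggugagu

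Matches to this seed were looked for in the longest annotated 3′ UTR of each gene (GENCODE vM21, build mm10). The sites were the 7mer-m8 (TGAATGT), the 7mer-A1 (GAATGTA), the 8mer that joins them, and the shorter 6mer (GAATGT). A 7mer was present in 3 of the 9 phosphatase genes (33.3%), against a 7mer or 8mer in 2702 of 11770 tested genes with a 3′ UTR (23.0%). No 8mer was found in the 9, and a 6mer in Dusp3 brought the number with any match to 4 (44.4%, against 35.5% of all). Searching every annotated 3′ UTR of a gene also gave 3 of 9. The median 3′ UTR length was 1190 bases in the 9 genes and 1114 in all, and a match is a description, not evidence of pairing. Each matched site lies in the last exon, and its letters follow on the transcript's strand with the match in capitals.
Dusp5, 7mer-m8 (chromosome 19, 53542324 to 53542330, plus strand, exon 4 of 4, base 1002 of 1109 of the 3′ UTR): gtaaacccatgTGAATGTgaagagaagcag
Dusp6, 7mer-A1 (chromosome 10, 99267443 to 99267449, plus strand, exon 2 of 2, base 1144 of 1190): atttattataaGAATGTAaaaccttaaatt
Dusp10, 7mer-A1 (chromosome 1, 184075492 to 184075498, plus strand, exon 4 of 4, base 969 of 1113): tatgtatatcaGAATGTAaaaaaacaaaac
Dusp3, 6mer (chromosome 11, 101974099 to 101974104, minus strand, exon 3 of 3, base 630 of 3591): ttgattctttgGAATGTttaaagtgtgcct
The Dusp5, Dusp6 and Dusp10 sites all lie in the last part of their 3′ UTR, and Dusp1, Dusp4, Dusp7, Dusp8 and Dusp16 held no match of 6 bases or more.

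The comparison of the groups asked how the level of each phosphatase transcript differed between miR-181d-5p livers and control livers. In bulk tissue, fewer cells of a type and less RNA per cell cannot be told apart. None of the 9 passed: by limma, with Benjamini-Hochberg adjustment over all genes tested, the adjusted p-values ran from 0.24 (Dusp4) to 0.886 (Dusp10). Of all 12053 genes, 0 passed (0.0%) by limma on FPKM and 0 by limma voom on recovered reads, while 2 did by voom with sample quality weights. At an unadjusted p under 0.05, 1 of the 9 was lower in miR-181d-5p livers, Dusp4. That is to be read against 1768 genes in either direction (14.7%) and 1161 lower ones (9.63%) in the table. The groups overlapped in all 9 phosphatases, while 298 of all genes (2.47%) separated. The mean log2 value was lower in miR-181d-5p livers for all 9 in the FPKM as deposited, though for Dusp10 it was higher after quantile normalization and without control liver 5. Of all genes tested, 54.54% were lower (median log2 change -0.018).

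**Figure D1:**
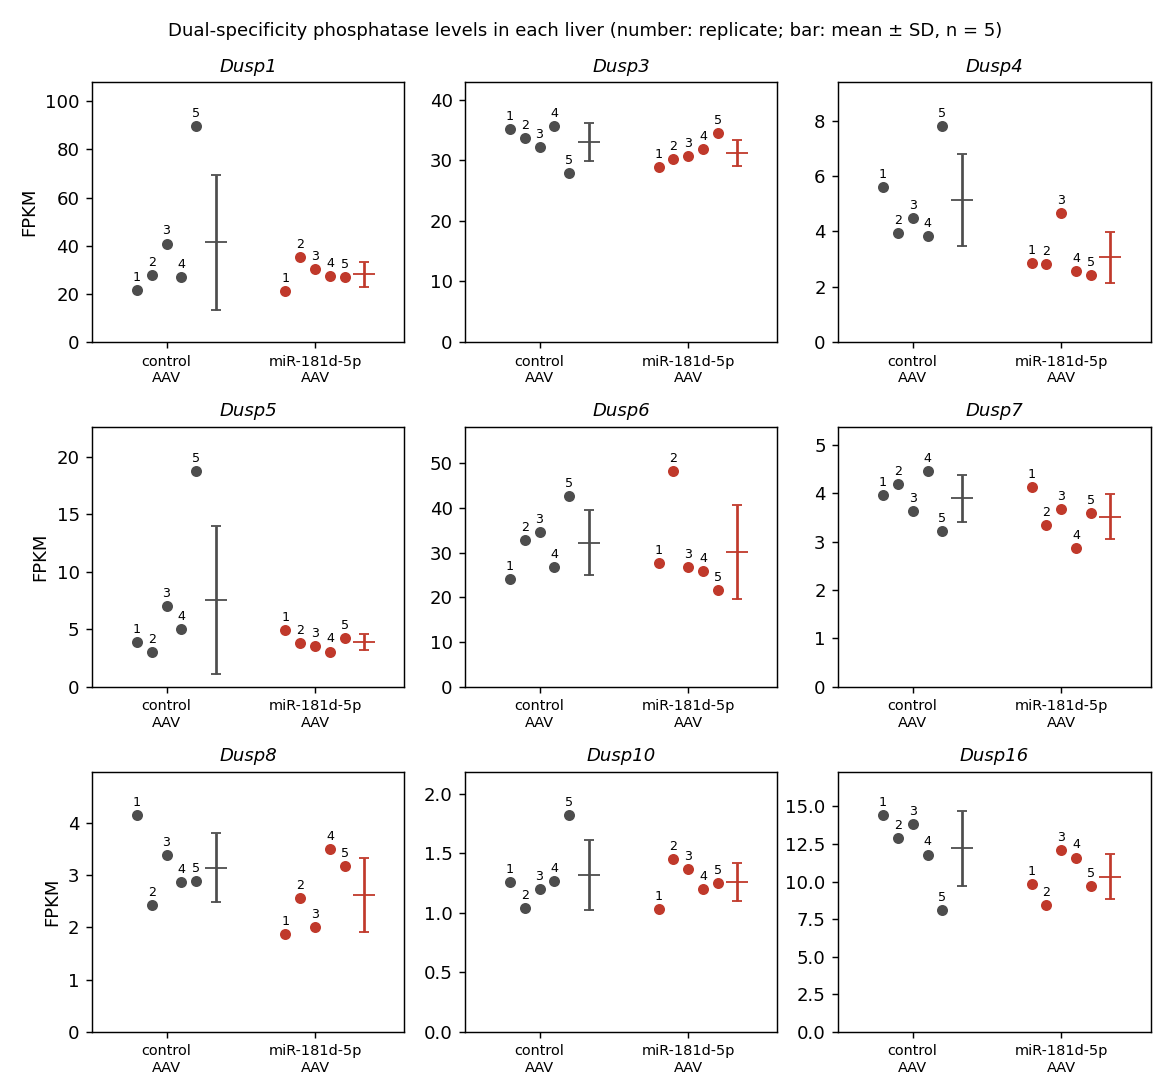
Level of each phosphatase in FPKM (vertical axes from 0, each panel on its own scale) in 5 control and 5 miR-181d-5p livers; points are single livers with their replicate number, and the bar is the mean ± SD (n = 5). Control liver 5 is the highest control point for Dusp1 (89.9), Dusp4 (7.82), Dusp5 (18.8), Dusp6 and Dusp10 and the lowest for Dusp3, Dusp7 and Dusp16.

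In FPKM, which divides by gene length and so allows levels to be compared between genes, 3 phosphatases led. The mean over 10 livers was 34.8 ± 20.2 FPKM for Dusp1, 32.0 ± 2.71 for Dusp3 and 31.2 ± 8.60 for Dusp6 (SD). These 3 could not be ordered: Dusp1 lay above Dusp3 in 3 of 10 livers, and Dusp3 above Dusp6 in 7. Dusp16 followed at 11.3 ± 2.18 FPKM, below Dusp6 in all 10 livers. Dusp5 (5.74 ± 4.75), Dusp4 (4.10 ± 1.67) and Dusp7 (3.71 ± 0.487) came next, and Dusp4 exceeded Dusp7 in 4 of 10 livers. Dusp8 stood at 2.88 ± 0.701 FPKM and Dusp10, below it in all 10 livers, at 1.29 ± 0.228. The sum of the 9 was 203 FPKM in control liver 5, of which Dusp1 made up 44.25%, and 102 to 141 FPKM in the other 9 livers.

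Among the inducible nuclear enzymes, Dusp4 encodes MKP-2, which acts on ERK, JNK and p38 and is itself induced by ERK. The gene spans 34807297 to 34819894 on the plus strand of chromosome 8 (mm10). Its level was 5.60, 3.94, 4.48, 3.83 and 7.82 FPKM in control livers 1 to 5, and 2.85, 2.81, 4.67, 2.55 and 2.41 FPKM in miR-181d-5p livers 1 to 5. Thus 4 of the 5 miR-181d-5p livers lay below every control liver, and miR-181d-5p liver 3 lay above 3 of the controls. The means were 5.14 ± 1.66 and 3.06 ± 0.918 FPKM (SD, n = 5 each), so the miR-181d-5p group stood at 59.5% of control. The log2 change was -0.58 (SE 0.18, 95% interval -0.96 to -0.20), with an unadjusted limma p of 0.00561, place 280 of 12053, and an adjusted p of 0.24. The two-sided exact permutation p over all 252 labellings was 0.0317, where the smallest possible is 0.00794. Without control liver 5 the log2 change was -0.44 (limma adjusted p = 0.166). Dusp4 rested on 116 to 364 reads per liver.

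Dusp1 encodes MKP-1, the best known of the family, an immediate early gene product that acts on p38, JNK and ERK. It spans 26505590 to 26562128 on the minus strand of chromosome 17 in GENCODE vM21. On that strand the span begins well upstream of the RefSeq window searched for promoter motifs below (26508423 to 26508722), which lies inside it. Control livers 1 to 5 held 21.7, 27.9, 40.9, 26.8 and 89.9 FPKM, and miR-181d-5p livers 1 to 5 held 21.2, 35.4, 30.1, 27.3 and 26.9 FPKM. A single control liver, the fifth, was far above the rest, and the remaining 9 livers overlapped. The means were 41.4 ± 28.0 and 28.2 ± 5.17 FPKM (SD, n = 5 each), or 68.0% of control. The log2 change of -0.36 (SE 0.30, 95% interval -1.01 to 0.29) had an limma adjusted p of 0.58. Without control liver 5 the control mean was 29.3 ± 8.18 FPKM, the miR-181d-5p group stood at 96.2% of it, and the log2 change was -0.04.

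Dusp5 encodes an ERK-specific nuclear phosphatase that also holds ERK in the nucleus, and carries the 7mer-m8 shown above. It spans 53529109 to 53542431 on the plus strand of chromosome 19. Control livers 1 to 5 held 3.90, 3.03, 7.01, 5.01 and 18.8 FPKM, and miR-181d-5p livers 1 to 5 held 4.91, 3.81, 3.57, 3.07 and 4.27 FPKM. Control liver 5 was again alone at the top, at 3.98 times the mean of the other 4 controls (for Dusp1, 3.07 times). With it, the miR-181d-5p group stood at 51.9% of control (7.56 ± 6.48 and 3.93 ± 0.702 FPKM, SD, n = 5 each), a log2 change of -0.55 (SE 0.33, 95% interval -1.27 to 0.17) and an limma adjusted p of 0.443. Without it the group stood at 82.9% of control, with a log2 change of -0.18 (limma adjusted p = 0.543). Dusp2, the remaining nuclear enzyme and not among the 9, stood at 3.39 ± 0.950 and 2.68 ± 0.635 FPKM, a log2 change of -0.25 (limma adjusted p = 0.484), and of -0.15 without control liver 5. Spread within the control group, as SD over mean, was 85.8% for Dusp5 and 67.6% for Dusp1, against 17.9% and 18.4% in miR-181d-5p livers. Much of it came from control liver 5. Without that liver the controls stood at 4.74 ± 1.72 FPKM for Dusp5 and 29.3 ± 8.18 FPKM for Dusp1, against SDs of 6.48 and 28.0 with it.

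Dusp1 and Dusp5 were high in the same liver. With that known, the promoters of the 9 genes were searched for elements through which stimuli act on immediate early genes. RefSeq windows (GRCm38.p6) of 250 bases before to 50 after the start were used, and 8 of the 9 genes had one (all but Dusp4). The motifs were the cAMP response element (TGACGTCA), its first part (TGACG), the AP-1 site (TGANTCA), the EGR site (GCGTGGGCG) and the CArG box of serum response factor, each on both strands. The first part is contained in the whole element, so those matches overlap. The whole cAMP response element was found in Dusp1 and Dusp8, against 588 of 32851 windows (1.79%). The CArG box was found in Dusp5 alone of the 8, in adjacent copies, against 535 windows (1.63%). The AP-1 site (7.81% of windows) and the EGR site (0.61%) were in none of the 8, and TGACG in 4 (20.8%). A match describes letters only. The matches are given on the gene's strand, in capitals, with the position of their first base relative to the start.
Dusp1, cAMP response element at -143 (window on chromosome 17, 26508423 to 26508722, minus strand): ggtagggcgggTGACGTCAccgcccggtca
Dusp5, CArG box at -82 (window on chromosome 19, 53528895 to 53529194, plus strand): cggggaaatacCCATATTTGGccttatatg
Dusp5, CArG box at -72: cccatatttggCCTTATATGGgcactcacg
Dusp8, cAMP response element at -107 (window on chromosome 7, 142095235 to 142095534, minus strand): gcccgctccgcTGACGTCAcctgcccccga
Dusp8, cAMP response element at -63: ttggctgcaggTGACGTCAggggctttttc
Dusp8, with the cAMP response element in 2 copies, stood at 2.89 FPKM in control liver 5, within the range of the other controls. A link between any of these elements and the levels in that liver was not tested.

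Of the cytoplasmic ERK phosphatases, Dusp6 encodes MKP-3, which anchors and inactivates ERK and is a standard readout of growth factor signalling. The gene spans 99263231 to 99267489 on the plus strand of chromosome 10, and its 3′ UTR holds a 7mer-A1. Control livers 1 to 5 held 24.1, 32.8, 34.7, 26.9 and 42.7 FPKM, and miR-181d-5p livers 1 to 5 held 27.7, 48.4, 26.8, 25.9 and 21.6 FPKM. The highest and the lowest of the 10 livers were both in the miR-181d-5p group, livers 2 and 5. The means were 32.2 ± 7.25 and 30.1 ± 10.5 FPKM (93.3% of control), with a log2 change of -0.12 (SE 0.19, 95% interval -0.55 to 0.30, limma adjusted p = 0.78). Without control liver 5 the log2 change was -0.02, and leaving out miR-181d-5p liver 2 took it to the lowest value of any setting, -0.31.

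Dusp7 encodes MKP-X, a relative of MKP-3 (chromosome 9, 106368632 to 106375724, plus strand). It held 3.96, 4.20, 3.63, 4.47 and 3.23 FPKM in the controls and 4.13, 3.34, 3.67, 2.87 and 3.59 FPKM in the miR-181d-5p livers. Here control liver 5 was the lowest control, and the groups overlapped over most of their range. The log2 change was -0.12 (SE 0.09, limma adjusted p = 0.573), and -0.17 without control liver 5 (adjusted p = 0.294). Dusp9, the third of this group and not among the 9, was under the filter at 0.0732 to 0.383 FPKM.

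Of the phosphatases for stress kinases, Dusp16 encodes MKP-7, which acts on JNK (chromosome 6, 134715468 to 134792625, minus strand). Control livers 1 to 5 held 14.4, 12.9, 13.8, 11.8 and 8.12 FPKM, and miR-181d-5p livers 1 to 5 held 9.82, 8.41, 12.1, 11.6 and 9.73 FPKM. Control liver 5 was the lowest of all 10, and among the other controls only liver 4 lay below a miR-181d-5p liver. With all livers the miR-181d-5p group stood at 84.7% of control (12.2 ± 2.50 and 10.3 ± 1.51 FPKM), a log2 change of -0.21 (SE 0.14, 95% interval -0.51 to 0.09, limma adjusted p = 0.491). Without control liver 5 it stood at 78.1% of 13.2 ± 1.15 FPKM, with a log2 change of -0.33 (SE 0.10), an unadjusted limma p of 0.00685 and an adjusted p of 0.159. The exact permutation p without it was 0.0397.

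Dusp8 encodes a JNK and p38 phosphatase best known from brain and heart (chromosome 7, 142079490 to 142095843, minus strand). It held 4.14, 2.42, 3.39, 2.86 and 2.89 FPKM in the controls and 1.88, 2.56, 2.01, 3.50 and 3.17 FPKM in the miR-181d-5p livers. The 2 lowest livers, 1 and 3, were in the miR-181d-5p group, while its livers 4 and 5 lay among the controls. The log2 change was -0.20 (SE 0.14, limma adjusted p = 0.507), and -0.22 without control liver 5. Dusp10 encodes MKP-5, a p38 and JNK phosphatase with a role in innate immunity (chromosome 1, 184013302 to 184075636, plus strand). It held 1.26, 1.04, 1.20, 1.27 and 1.82 FPKM in the controls and 1.03, 1.45, 1.37, 1.20 and 1.25 FPKM in the miR-181d-5p livers. Apart from control liver 5 the groups lay on top of each other, with a log2 change of -0.03 (SE 0.09, limma adjusted p = 0.886), and 0.04 without that liver.

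Dusp3, the small VHR phosphatase that acts on ERK and JNK, was the steadiest of the 9 (chromosome 11, 101971143 to 101987013, minus strand). Control livers 1 to 5 held 35.2, 33.7, 32.2, 35.7 and 27.9 FPKM, and miR-181d-5p livers 1 to 5 held 28.8, 30.2, 30.6, 31.8 and 34.4 FPKM. Control liver 5 was the lowest of the 10. SD over mean was 9.60% among controls and 6.80% among miR-181d-5p livers. The log2 change was -0.08 (SE 0.08, 95% interval -0.25 to 0.09, limma adjusted p = 0.66), and -0.13 without control liver 5 (adjusted p = 0.265). Exons of Dusp1, Dusp3, Dusp5 and Dusp8 overlap exons of a gene on the opposite strand, by 11 (Ergic1), 604, 547 and 66 bases. The sources used here do not say whether counting used strand, and some of their reads may belong to those genes.

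**Figure D2:**
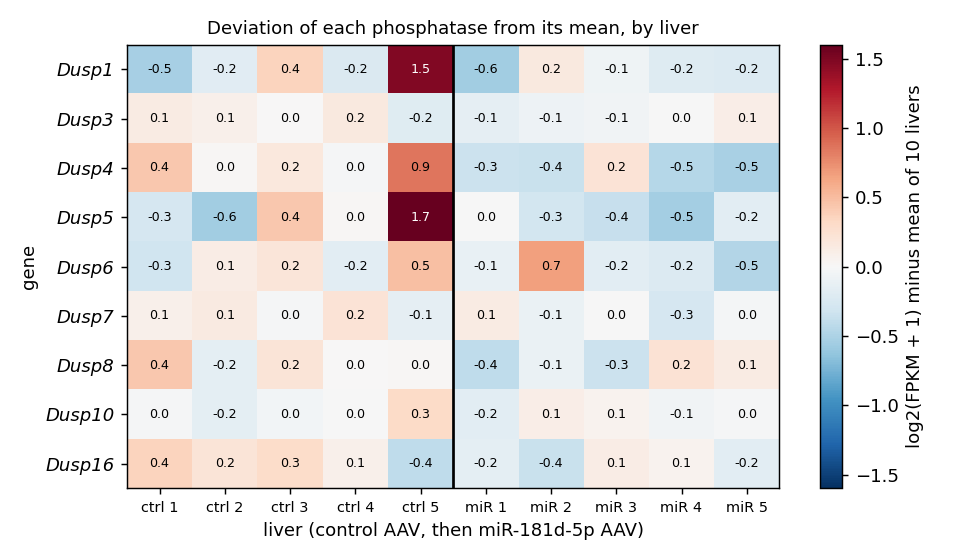
Deviation of each phosphatase (rows) in each liver (columns, 5 control then 5 miR-181d-5p) from its mean over 10 livers, on the log2(FPKM + 1) scale; red is above and blue below the mean. Control liver 5 is at 1.5 for Dusp1 and 1.7 for Dusp5 but below the mean for Dusp3, Dusp7 and Dusp16.

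Control liver 5 thus split the family. It was the highest control for Dusp1, Dusp4, Dusp5, Dusp6 and Dusp10, at 1.44 (Dusp6) to 3.98 (Dusp5) times the mean of the other controls. For Dusp16, Dusp7 and Dusp3 it stood at 0.613, 0.794 and 0.814 times that mean, and for Dusp8 at 0.901. Without it, 2 of the 9 had an unadjusted limma p under 0.05, Dusp4 and Dusp16, against 2587 of 12051 genes (21.5%). Leaving it out brought the log2 changes of Dusp1, Dusp5 and Dusp6 nearer to 0 and took those of Dusp3, Dusp7, Dusp8 and Dusp16 further below 0. Dusp4 stayed between -0.44 and -0.74 over all 21 alternatives, the first of these being the value without control liver 5, with an adjusted p of 0.166 to 0.502.

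**Figure D3:**
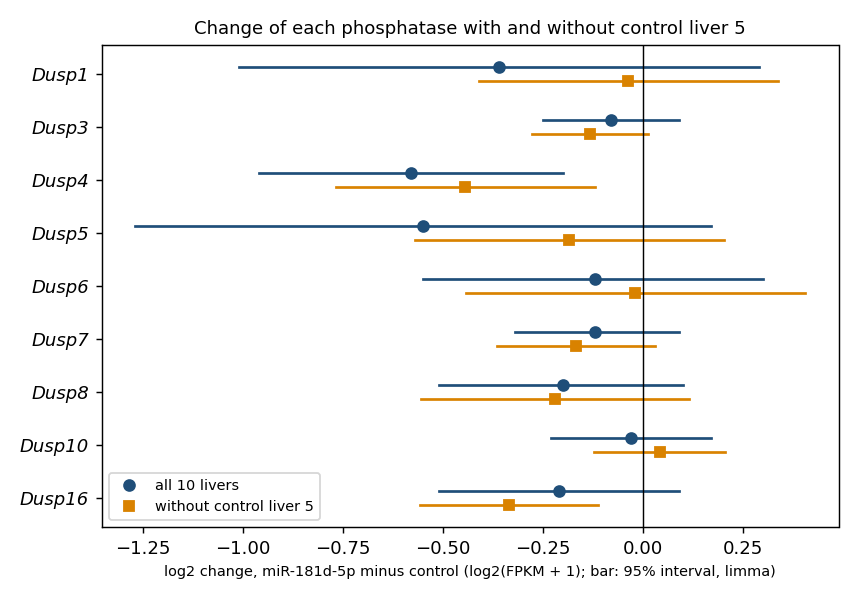
Difference of each phosphatase (miR-181d-5p minus control, mean log2(FPKM + 1)) with its 95% interval by limma, for all 10 livers (circles) and without control liver 5 (squares). The Dusp4 interval lies below 0 in both, the Dusp16 interval only without that liver, and Dusp1 moves from -0.36 to -0.04.

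Whether the phosphatases varied together from liver to liver was asked with each group's mean removed, over 36 pairs among the 9 and 18 pairs with Fos or Egr1. Fos encodes an AP-1 subunit and Egr1 a zinc finger factor, and both are classic transcripts of ERK activity. Fos held 5.76, 5.56, 11.5, 7.32 and 142 FPKM in control livers 1 to 5 and 6.70, 15.2, 10.1, 6.59 and 5.70 FPKM in miR-181d-5p livers. Egr1 held 16.7, 17.7, 25.2, 15.4 and 96.2 FPKM in controls and 13.1, 20.4, 19.0, 11.6 and 12.4 FPKM in miR-181d-5p livers. Both were led by control liver 5, and miR-181d-5p liver 2, the highest for Dusp6, had the most Fos and Egr1 of its group. None of the 54 pairs passed an adjusted p of 0.05 in an exact permutation test within groups, and 18 had an unadjusted p under 0.05 by Pearson's r, 11 by Spearman's rho and 5 by r without control liver 5.

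The closest pairs were Dusp1 with Fos (r = 0.95, exact permutation p = 0.00236, adjusted 0.0619; rho = 0.86, p = 0.00979, adjusted 0.113) and Dusp1 with Egr1 (r = 0.95, p = 0.00375, adjusted 0.0619; rho = 0.89, p = 0.00444, adjusted 0.113). Without the 2 livers farthest from the median these r were 0.76 and 0.70, and without control liver 5 they were 0.80 and 0.77. Dusp6 followed Egr1 (r = 0.66, exact permutation p = 0.00229, adjusted 0.0619; rho = 0.71, p = 0.0253, adjusted 0.203), with r = 0.58 without the 2 farthest livers and 0.72 without control liver 5. Dusp6 with Fos gave r = 0.66 (exact permutation p = 0.00458, adjusted 0.0619; rho = 0.65, p = 0.0458, adjusted 0.226), 0.56 without the 2 farthest and 0.80 without control liver 5. Dusp5 with Fos gave r = 0.90 (exact permutation p = 0.0285, adjusted 0.118; rho = 0.74, p = 0.0376, adjusted 0.226), with r = 0.59 without the 2 farthest livers and 0.40 without control liver 5. Dusp3 ran the other way to Fos (r = -0.82, exact permutation p = 0.0187, adjusted 0.112; rho = -0.79, p = 0.00826, adjusted 0.113), with -0.51 without the 2 farthest and -0.50 without control liver 5. Dusp10 with Fos gave r = 0.88 (exact permutation p = 0.00986, adjusted 0.0887). Its rho was 0.64 (exact permutation p = 0.0615, adjusted 0.226), and its r was 0.40 without the 2 farthest livers and 0.62 without control liver 5. Dusp1 with Dusp6 gave r = 0.67 (exact permutation p = 0.00868, adjusted 0.0887). Its rho was 0.72 (exact permutation p = 0.0301, adjusted 0.203), and its r was 0.56 without the 2 farthest livers and 0.65 without control liver 5. Among the 36 pairs of the 9 phosphatases, 16 had an r above 0, with a median of -0.15. By rho 18 were above 0, with a median of -0.01. Without control liver 5, 15 had an r above 0, with a median of -0.05.

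**Figure D4:**
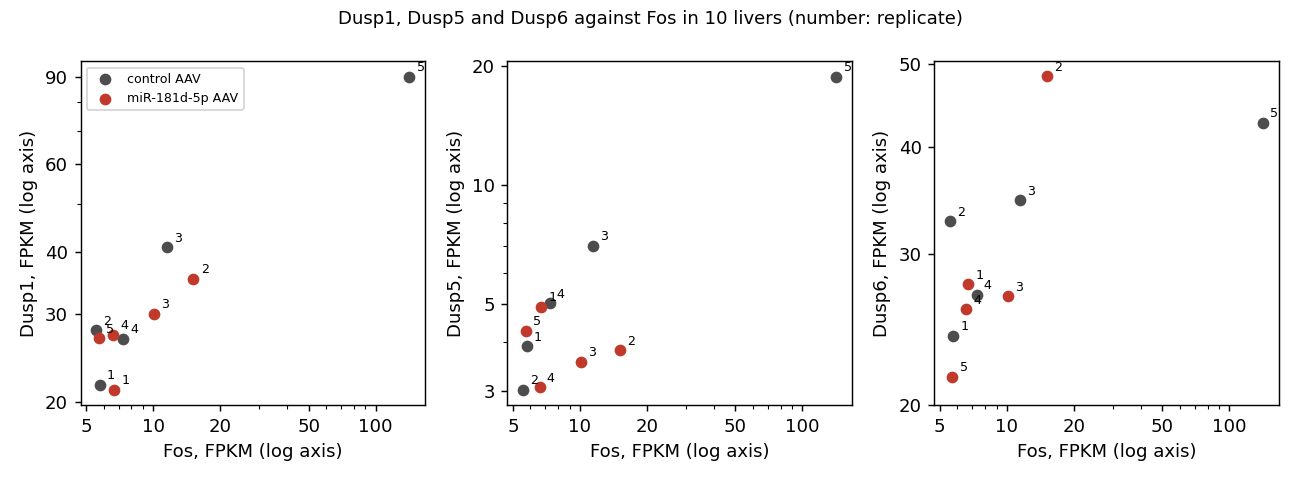
Dusp1, Dusp5 and Dusp6 (vertical, FPKM, log axes) against Fos (horizontal, FPKM, log axis) in 10 livers; each point is 1 liver with its replicate number. Control liver 5 is far to the right at 142 FPKM of Fos, and Dusp6 peaks at 48.4 FPKM in miR-181d-5p liver 2.

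Genes outside the family with the most similar pattern were taken as the 3 with the highest r for each phosphatase over the 10 livers, group means removed. They were picked for that r among all genes averaging 1 FPKM or more, so the values are descriptions. For Dusp1 they were Cmc2, Zfp36, which encodes an RNA decay factor induced with Fos, and the AP-1 gene Fosb (r = 0.96, 0.96 and 0.95, and 0.84, 0.85 and 0.81 without control liver 5). For Dusp5 they were Hilpda, a lipid droplet protein induced by hypoxia, Plvap, an endothelial protein, and the chemokine Cxcl10 (each r = 0.98, and 0.91, 0.95 and 0.88 without control liver 5). For Dusp6 they were the lipogenic gene Thrsp, the sterol synthesis gene Erg28 and the replication inhibitor Gmnn (r = 0.92, 0.91 and 0.88). For Dusp4 they were the hepatocyte protease inhibitor Serpina1c, whose reads may be shared with close copies, Klhdc8b and Mrnip (r = 0.88, 0.87 and 0.87), the lowest first value of the 9. Dusp10 had Fdx2, Pdap1 and the AP-1 gene Jun (r = 0.91, 0.90 and 0.90, with 0.68 for Jun without control liver 5). The leading genes were Bri3bp for Dusp3 (r = 0.97), Rundc1 for Dusp7 (r = 1.0), Dlat for Dusp8 (r = 0.95) and Zscan26 for Dusp16 (r = 0.96).

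The rest of the pathway is given from lists, with counts read beside the 9.63% of all genes that were lower at an unadjusted p under 0.05. No gene of these lists passed the adjusted limma test. Of 13 measured dual-specificity phosphatases outside the MAP kinase group, 5 were lower and 8 higher in miR-181d-5p livers (median log2 change 0.03), and 1 had an unadjusted p under 0.05. That was Ssh2, a slingshot phosphatase of the actin regulator cofilin, at 1.63 ± 0.481 and 1.15 ± 0.126 FPKM. The next by p were Dusp23, Dusp12 and Dusp11, at 113.8%, 111.9% and 89.4% of control. Dusp21 was not in the table, and 8 of the list were under the filter.

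Of 11 MAP kinases, 7 were lower and 4 higher, with a median of -0.03. Mapk13, which encodes p38 delta, was the 1 with an unadjusted p under 0.05, at 1.01 ± 0.250 and 0.697 ± 0.168 FPKM. The 7 MAP kinase kinases split into 3 lower and 4 higher (median 0.01), with 0 at an unadjusted p under 0.05. Of 17 kinases a level further up, 12 were lower (median -0.15) and 3 had an unadjusted p under 0.05, all lower: Map3k6, Map3k8 and Map3k3. Map3k8, which encodes TPL2, the kinase that activates ERK downstream of inflammatory receptors, stood at 4.06 ± 0.761 and 2.87 ± 0.599 FPKM, a log2 change of -0.39 (limma adjusted p = 0.25). Without control liver 5 that count was 9 of 17, all lower, where 21.5% of all genes had an unadjusted p under 0.05 in either direction.

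Genes of the Ras module were lower in 11 of 13 (median -0.07), with Rasa2 the 1 at an unadjusted p under 0.05. Among 10 kinases activated by MAP kinases that count was 1 (Rps6ka3), and among 6 other phosphatases of MAP kinases it was 1 (Ptpn7). Feedback and target genes of ERK were lower in 13 of 17, with a median of -0.33 that was -0.16 without control liver 5. Of these, 4 had an unadjusted limma p under 0.05, all lower. Without control liver 5 that count was 5, all lower, where 21.5% of all genes had one in either direction. The membrane protein gene Emp1 stood at 24.0 ± 5.19 and 15.6 ± 3.96 FPKM (log2 change -0.60, adjusted p = 0.24), and Ereg, which encodes the EGF receptor ligand epiregulin, at 1.57 ± 0.817 and 0.791 ± 0.146 FPKM. Spry1 and Spry2, feedback inhibitors of the path from growth factor receptors to ERK, stood at 6.88 ± 1.55 and 5.09 ± 0.490 FPKM and at 1.12 ± 0.536 and 0.654 ± 0.133 FPKM. The log2 change of Ereg was -0.48, and -0.31 without control liver 5, and that of Spry2 was -0.33 and -0.19. For Emp1 it was -0.60 and -0.53, and for Spry1 -0.35 and -0.26. The 30 immediate early genes, which share Fos, Egr1 and others with that list, were lower in 28 (median -0.38), with 8 at an unadjusted p under 0.05. Without control liver 5 the median was -0.08, while 8 were lower and 1 higher at an unadjusted p under 0.05, beside the same 21.5%. Those of smallest p with all livers were Per1, Klf6, Klf10 and Klf4. Their log2 changes were -0.80, -0.38, -0.48 and -0.36, and -0.84, -0.32, -0.41 and -0.27 without that liver.

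Markers of other liver cells are given by their counts and summed levels, and their part in the phosphatase values was not tested. None passed the adjusted limma test, and the counts of lower markers at an unadjusted p under 0.05 are read beside 9.63% of all genes. Stellate cell and fibroblast markers were lower in 10 of 10, 7 of them at an unadjusted p under 0.05, with summed levels of 487 to 661 FPKM in controls and 348.5 to 473.8 FPKM in miR-181d-5p livers. Bile duct markers were lower in 6 of 6 measured, 4 of them at an unadjusted p under 0.05, with Cftr and Sctr under the filter. Their sums were 270.2 to 504.5 FPKM in controls and 114.5 to 369.9 FPKM in miR-181d-5p livers. Spp1 made up most of these sums, at 329 ± 86.3 and 204 ± 83.8 FPKM. It is also on the list of monocyte-derived macrophage markers. Kupffer cell and macrophage markers were lower in 7 of 10 (1983 to 2936 and 1501 to 2666 FPKM). Lyz2 was the largest part of these sums, at 1456 ± 318 and 1203 ± 375 FPKM. Of the 10, 3 were lower at an unadjusted p under 0.05, while Marco was higher at that threshold. Clec4f and Timd4 were also higher, at 108.9% and 125.4% of control, but not at that threshold. Markers of monocyte-derived macrophages were lower in 9 of 9 (734.5 to 1132 and 442 to 987 FPKM), 2 of them at that threshold. Endothelial markers were lower in 7 of 10 (171.8 to 199.5 and 170.7 to 180.5 FPKM), lymphocyte markers in 5 of 6 (9.49 to 17.2 and 9.04 to 13.4 FPKM). At an unadjusted p under 0.05, 4 endothelial and 2 lymphocyte markers were lower. Neutrophil markers were lower in 4 of 5, with 0 at an unadjusted p under 0.05. Their median log2 change was -0.07, and 0.08 without control liver 5. Their sum was 122 FPKM in control liver 5, against 53.0 to 83.9 FPKM in the other controls and 55.2 to 87.8 FPKM in miR-181d-5p livers. Ly6g, Mpo and Elane, also on that list, were under the filter. For comparison, hepatocyte markers were higher in 9 of 12 and lower in 3, with Ttr higher at an unadjusted p under 0.05. No marker on these lists was at 0 in all livers.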

How the data were processed

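Poly(A) RNA of 10 livers was measured. The authors deposited 1 table of FPKM by gene symbol. RNA came from the mirVana kit and libraries from the TruSeq Stranded mRNA kit, per the labels' protocols. The submitters' processing notes name the build mm10 and, without role or order, DESeq2 1.18.1, R 3.4.1, HTSeq 0.13.5, HISAT2 2.2.1, Trimmomatic 0.38 and FastQC 0.11.9. Use of strand in counting: not given in the sources used here.

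From the deposited FPKM, log2(FPKM + 1) of genes averaging 0.5 FPKM or more was fitted with limma 3.58.1 in R 4.3.3 (eBayes with trend, group as the only term, two-sided, threshold 0.05 after Benjamini-Hochberg adjustment). Changes are on that log2 scale and understate those of low genes. Exact permutation tests of single genes and of correlations enumerate all labellings of the livers or all reorderings within groups (14400). Whole reads, within 0.02 of a read, came back for 17273 of 17274 genes (99.994%), and totals per library were recovered with them. limma voom on those reads was an alternative, since the unit is FPKM. Further alternatives were the pseudocount, filters, a replicate block, array weights, robust fitting, scalings and leaving out each liver. The procedure was tested on simulated data.

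The members and lists were chosen with earlier results of these data known. Named genes are the 9, Fos and Egr1, up to 4 of each pathway list by smallest p, and the 3 of highest r per member. Python 3.11.15, numpy 2.4.6, pandas 2.3.3, scipy 1.17.1 and matplotlib 3.10.9 were used.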

Additional observations from a re-analysis of the deposited data

Results flagged for a closer look

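Each of the 9 phosphatases was checked in each group for a liver far from the other 4, by the gap to its nearest neighbour over the group's range with a critical value of 0.71 at the 95% level. Of these 18 sets of 5 livers, 4 held such a liver. The check was made on FPKM, not on the log2 scale of the other tests, where a single high value stands out less. Its rate of about 5% of sets by chance holds for normally distributed values, which FPKM need not be. These sets also share livers, so the count is a description. Dusp1 in control liver 5 was at 89.9 FPKM (gap over range 0.718), and Dusp5 in the same liver at 18.8 FPKM (0.748). Dusp4 in miR-181d-5p liver 3 was at 4.67 FPKM (0.804), above the other 4 of its group. Dusp6 in miR-181d-5p liver 2 was at 48.4 FPKM (0.774), the highest Dusp6 value of the 10 livers.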

How the results depend on the processing

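Over 21 alternatives the log2 changes of 8 phosphatases stayed below 0 and no phosphatase passed the adjusted limma test. Dusp10 was the exception in direction: 0.03 after quantile normalization, and -0.08 to 0.04 when single livers were left out (0.01 without miR-181d-5p liver 1, 0.04 without control liver 5). The count of phosphatases at an unadjusted p under 0.05, which was 1, became 2 with array weights and 2 by voom with sample quality weights (Dusp4 and Dusp16 in both). It was 1 to 2 when livers were left out, the second being Dusp5 without control liver 2 and Dusp16 without control liver 5. Genes called in the whole table were 0, but 1 with the replicate block, 2 by voom with quality weights, and 0 to 3 leaving out a liver (without control liver 1 it was 3, and 1 each without control liver 5 or miR-181d-5p liver 3). Genes at an unadjusted p under 0.05 ran from 1074 (without miR-181d-5p liver 4) to 2587 (without control liver 5) around 1768. Pairs called as covarying were 0, and 0 to 9 leaving out a liver (9 without miR-181d-5p liver 1, 2 without control liver 2). The cause of these shifts was not tested.

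The labels tie samples with the same number by that number alone. Their deviations correlated at -0.283 to 0.015, and 0 of 5 control livers correlated best with its own number. Such correlations cannot show that no pairing exists. With the replicate block, Dusp4 had an unadjusted p of 0.00939, an adjusted p of 0.488 and an unchanged log2 change of -0.58. With 5 livers a group, the 95% intervals of Dusp1 and Dusp5 (-1.01 to 0.29 and -1.27 to 0.17) reach from a large decrease to a small increase. Reads per liver were fewest for Dusp5 (105) and Dusp4 (116).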
